A study of Mus musculus with 12 samples.

Results

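The receptors and proteases with which the yolk sac takes up and digests maternal protein were followed in 10 genes: Lrp2, Cubn, Amn, Dab2, Lrpap1, Folr1, Ctsl, Ctsb, Ctsz and Lgmn. The genes were chosen by name for their place in this pathway, with earlier results of these data known. A probe set was taken only where the array annotation gave it 1 of these genes and no other. This found 26 of the 45101 probe sets, and all 10 genes of the 18193 that could be named. For each gene the probe set with the highest mean over the 12 arrays was used. Values of other probe sets are given where a gene had them, though not for every comparison. Amn, Folr1 and Lgmn had 1 probe set each.

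Whole mouse yolk sac was profiled on Affymetrix arrays in 4 groups of 3 pools: wild type at embryonic day (E) 8.5, Norrin at E8.5, wild type at E10.5 and Norrin at E10.5. Norrin, a secreted ligand of the receptor Frizzled4, was made ectopically in the Norrin groups from a conditional over-expression allele (Z/Norrin mice). What switched the allele on, and in which cells, is not given in the sources used here. All groups were of mixed C57Bl6/129 background and mixed sex, and each sample pooled 3 to 5 yolk sacs, so replicates are separate pools and the spread between single embryos was not measured.

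The visceral endoderm, the outer epithelium of the yolk sac, feeds the early embryo by endocytosis. Megalin (Lrp2) and cubilin (Cubn) are giant receptors on its apical surface that bind vitamin carriers, lipoproteins and other proteins, and amnionless (Amn) anchors cubilin in the membrane. Disabled-2 (Dab2) links the receptors to clathrin, the chaperone RAP (Lrpap1) keeps newly made receptors free of ligand, and the folate receptor (Folr1) works at the same surface. The cargo is cut in lysosomes by cathepsins L, B and Z (Ctsl, Ctsb, Ctsz) and by legumain (Lgmn), which releases amino acids for the embryo.

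By RefSeq's annotation of the mouse build GRCm38.p6, the genes lie on chromosome 2 at 69424335 to 69586029 (Lrp2), 13276338 to 13491876 (Cubn) and 174427494 to 174439039 (Ctsz), and on chromosome 12 at 111271096 to 111276426 (Amn) and 102394082 to 102439728 (Lgmn). Dab2 lies on chromosome 15 at 6299788 to 6440715, Lrpap1 on chromosome 5 at 35091490 to 35105699 and Folr1 on chromosome 7 at 101858331 to 101870788. Ctsl lies on chromosome 13 at 64361890 to 64370772 and Ctsb on chromosome 14 at 63122462 to 63145923. These are positions of the genes, not of the probes.

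Promoter sequences are shown for Lrp2 and Lrpap1, the 2 members with an unadjusted p under 0.05 between genotypes at E10.5, and for the 3 members that carry CACGTG, the E-box read by the TFEB family of lysosomal transcription factors. RefSeq windows on GRCm38.p6, reaching from 250 bases before the annotated start to 50 after it, were matched for 8 of the 10 members, all but Folr1 and Ctsb. The letters CACGTG, which read the same on both strands, occurred in the windows of Amn, Ctsl and Lgmn, against 8.09% of the 27025 genes with a window. They also occurred in 16 of 48 genes for other lysosomal proteases, hydrolases, membrane proteins and the proton pump (33.3%). The sequences run 5′ to 3′ on the gene's strand, with CACGTG in capitals. The first 3 end at the last base before the start, and the last 2 are short stretches around the motif of windows that lie inside the annotated gene.
Lrp2, chr2:69586030-69586149, minus strand: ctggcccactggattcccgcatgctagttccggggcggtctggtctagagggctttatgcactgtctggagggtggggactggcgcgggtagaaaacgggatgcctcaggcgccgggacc
Lrpap1, chr5:35105700-35105819, minus strand: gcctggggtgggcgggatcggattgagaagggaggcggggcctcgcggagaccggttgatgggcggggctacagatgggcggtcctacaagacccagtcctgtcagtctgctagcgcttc
Amn, chr12:111270976-111271095, plus strand: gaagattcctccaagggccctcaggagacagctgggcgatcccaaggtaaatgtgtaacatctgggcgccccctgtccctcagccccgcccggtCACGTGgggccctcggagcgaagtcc
Ctsl, chr13:64370739-64370768, minus strand: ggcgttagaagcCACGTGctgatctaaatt
Lgmn, chr12:102439124-102439153, minus strand: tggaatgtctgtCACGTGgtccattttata
The first capital stands 26 bases before the start in Amn, 236 in Ctsl and 49 in Lgmn. The letters CAAAGTCCA, a site form of Hnf4, were searched on both strands and found in 0 of the 8 member windows, against 0.555% of genes. Letters this rare are missing from most sets of 8 windows, so the count does not set the members apart. A match is a run of letters and was not tested as a binding site.

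All 10 members lay above the median gene level of 7.68 (log2). The probe sets of Cubn and Ctsl reached 14.33 and 14.11, near the highest values of the arrays (14.53 to 14.78), where brightness may compress a difference. Array medians were 6.59 to 6.73 at E8.5 and 6.97 to 7.01 at E10.5, and arrays of a group correlated across genes at r = 0.975 to 0.992. Markers of visceral endoderm fitted the labelled tissue: all 15 measured were above the median gene, with Afp at 14.71 ± 0.06 and Ttr at 14.38 ± 0.11 (SD, n = 3) in wild type at E10.5. The Norrin pools numbered 2 stood apart in 7 trophoblast markers, with a mean log2 level of 8.30 at E8.5, against 7.08 to 7.89 in the other 5 arrays. At E10.5 that pool stood at 9.73, against 7.83 to 8.37. Results were therefore also computed without these 2 pools.

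At E8.5 the uptake and protease genes differed little between Norrin and wild type. By limma 0 of 10 members passed an adjusted p of 0.05, where 0.077% of all genes did, and 0 had an unadjusted p under 0.05, against 7.22% of all genes. With the replicate block 0 members passed, against 1.41% of all genes. The median difference of the members was -0.09 (log2, Norrin minus wild type), beside -0.02 over all genes. By the probe sets used, the 10 differences ran from -0.21 (Ctsb) to 0.12 (Lrpap1). Dab2 gave -0.01, but its other probe sets gave 0.17, 0.34 and 0.38, each with all 3 pairs higher in Norrin and overlapping groups. The other Lrpap1 probe sets gave 0.27, 0.16 and 0.25, and the groups were apart for the one at 0.16. The other, dim Ctsl probe set gave 0.38 with overlapping groups, against -0.12 for the one used. None of these was called by limma over all probe sets.

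By the probe sets used, Ctsb was the 1 member whose E8.5 groups did not overlap, which held for 11.9% of all genes. Its wild type pools stood at 13.31, 13.23 and 13.23 and its Norrin pools at 13.10, 13.08 and 12.97. The difference of -0.21 (SE 0.10) had an adjusted p of 0.701 by limma, and its other 4 probe sets gave -0.22, -0.07, -0.05 and -0.04. For Lrp2 the difference was 0.11 with a 95% interval of -0.42 to 0.63, and for Cubn -0.11 with an interval of -0.40 to 0.17. Differences within these intervals could not be told from 0 with 3 pools a group. Of 15 visceral endoderm markers 1 rose (Sox17) and 1 fell (Apoa4) at E8.5 by limma, 9 had an unadjusted p under 0.05, and with the replicate block 3 rose and 5 fell, Afp (-1.05, blocked adjusted p = 0.0215) among them. Over all genes at E8.5, 0.077% passed by limma, 1.41% with the block, and 7.22% had an unadjusted p under 0.05. The median difference of these markers was -0.27, with 10 of 15 below 0. The mean level of the list, 12.01 to 12.19 in wild type and 11.91 to 12.20 in Norrin, includes Sox17 at 2.71 and so does not show these differences. Of 12 parietal endoderm markers 0 were called at E8.5 by either model, 4 had an unadjusted p under 0.05 and 9 lay above 0 (median 0.34). Of 17 macrophage markers 0 were called by either model and 15 lay below 0 (median -0.23). With the block 2 of 10 mesenchyme and 1 of 7 decidua markers rose.

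At E10.5 the differences of the members ran in both directions, from -0.89 (Lrp2) and -0.51 (Folr1) to 0.45 (Lrpap1) on the log2 scale, and the other members lay between -0.24 and 0.20. By limma with 1 mean per group, 0 of 10 members passed the threshold, where 4.07% of all genes did, and 2 (Lrp2 and Lrpap1) had an unadjusted p under 0.05, against 14.0%. With a block for the replicate number in each stage, 2 members passed (Lrp2 and Folr1, both lower), where 13.2% of all genes did. No label states that the numbers pair the pools, and the pairing was taken from these same data. The groups did not overlap for 6 of the 10 members (Lrp2, Cubn, Lrpap1, Ctsl, Ctsb and Ctsz), against 22.9% of all genes. The member median was -0.04 beside 0.0 over all genes, with 5 of 10 differences above 0.

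**Figure D1:**
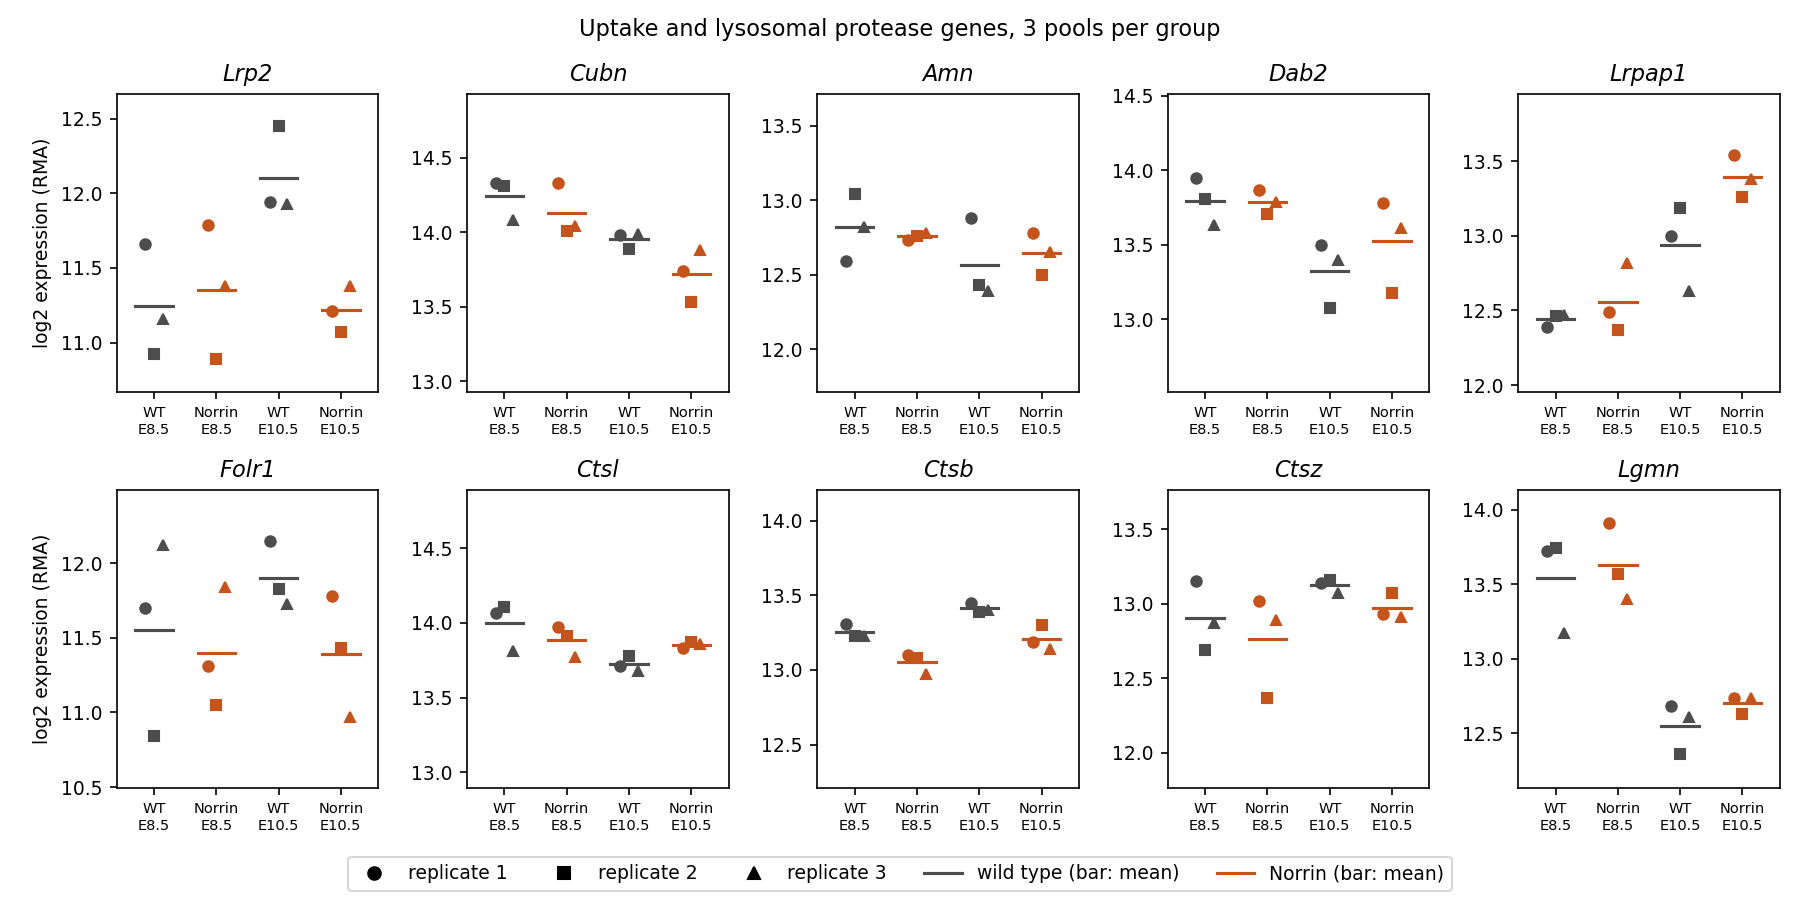
Log2 expression of each member (y axis, 1 panel per gene, panels share a width of log2 units but not a level) in the 3 pools of each group (x axis), with bars at the group means. Lrp2 stands at 11.93 to 12.45 in wild type and at 11.07 to 11.38 in Norrin at E10.5, while Lgmn separates the stages in both genotypes.

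Megalin had the largest difference of the members. At E10.5 Lrp2 stood at 11.94, 12.45 and 11.93 in the wild type pools and at 11.21, 11.07 and 11.38 in the Norrin pools. Every Norrin pool lay below every wild type pool, and the pairs of equal replicate number differed by -0.72, -1.38 and -0.55. Wild type replicate 2 was the highest of the 12 arrays. The difference was -0.89 (SE 0.24, 95% interval -1.41 to -0.36), a 1.85-fold lower level, with an adjusted p of 0.0662 by limma and of 0.00575 with the replicate block (SE 0.15).

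The call for Lrp2 therefore depended on the model, while the direction was kept in every alternative that was run. The adjusted p by limma was 0.0337 with the E10.5 arrays alone and 0.0401 after quantile normalization of all arrays, but 0.0932 with arrays centred on their medians. With the mean of its 3 probe sets the difference was -0.73 and the adjusted p 0.013. With 1 array left out the difference lay between -0.97 and -0.71 and the adjusted p between 0.0438 and 0.234. The smallest difference, -0.71, came without wild type replicate 2. Without the Norrin pools numbered 2 it was -0.81 (adjusted p = 0.14).

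A second bright probe set of Lrp2 gave 11.67, 12.19 and 11.68 in wild type and 10.79, 10.70 and 11.07 in Norrin at E10.5, a difference of -1.0 with groups apart. The third, dim probe set (7.46 and 7.17 on average) gave -0.30 with overlapping groups. At E8.5 the same 3 probe sets gave 0.11, 0.14 and 0.02. The bright probe sets thus went the same way at each stage.

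**Figure D2:**
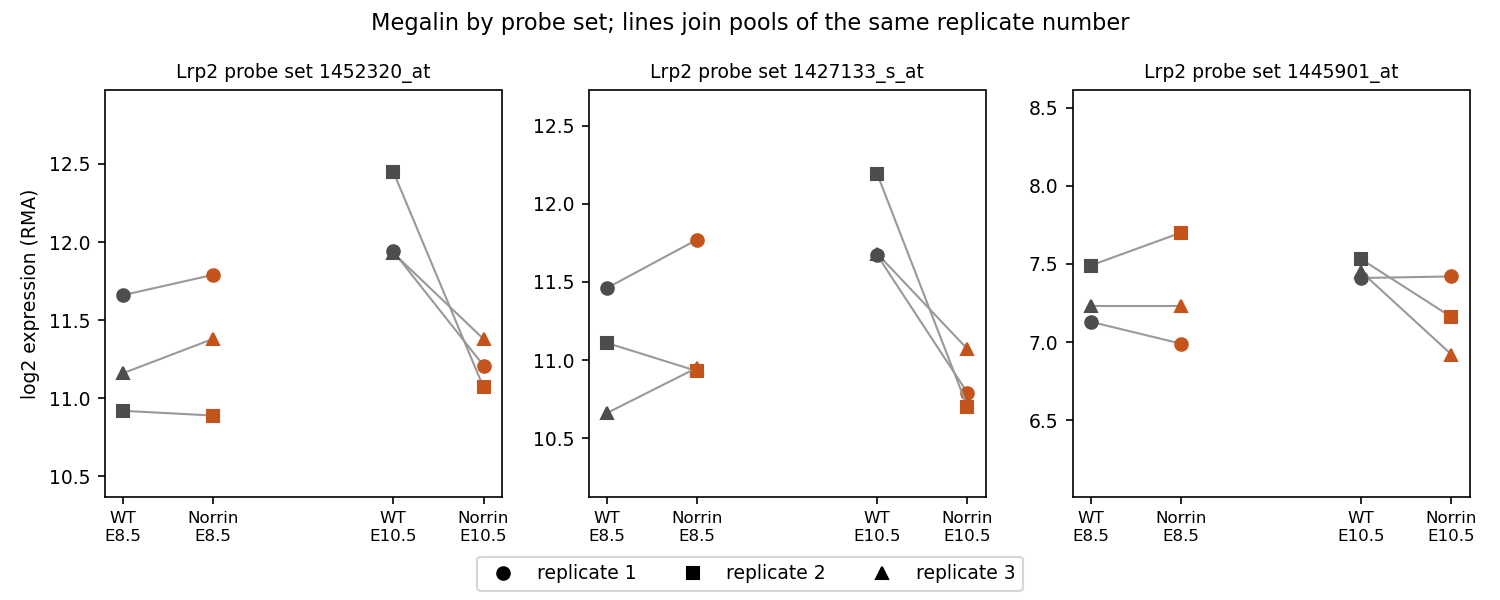
Log2 expression (y axis) of the 3 Lrp2 probe sets in each pool, by genotype and stage (x axis); lines join pools of the same replicate number. In both bright probe sets all 3 lines fall at E10.5, and at E8.5 they run in both directions.

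Over the 4 groups Lrp2 was highest in wild type at E10.5, with a mean of 12.11 ± 0.30 (SD, n = 3). Norrin at E8.5 (11.35 ± 0.45), wild type at E8.5 (11.25 ± 0.38) and Norrin at E10.5 (11.22 ± 0.16) followed and did not differ beyond their spread. Stage and normalization run cannot be told apart, so this order across the stages holds only for the values as deposited. The Norrin effect at E10.5 minus that at E8.5 was -0.99 (SE 0.34), with an adjusted p of 0.452 by limma and of 0.0525 with the replicate block. It is thus not shown that the effect on Lrp2 differed between the stages. In this test 0 of 10 members passed, with 0.0934% of all genes called, and 0 passed with the block, with 2.07% called.

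The partners of megalin did not follow it in 1 direction. Cubn, the receptor that shares much of its cargo, stood at 13.98, 13.89 and 13.99 in wild type and at 13.74, 13.53 and 13.88 in Norrin at E10.5. The groups lay just apart, with a difference of -0.24 (SE 0.13, adjusted p = 0.505 by limma). Its other probe set gave -0.39 with overlapping groups, and all 3 pairs were lower in Norrin for both probe sets.

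Amn, the membrane anchor of cubilin, had overlapping groups at E10.5: 12.88, 12.43 and 12.39 in wild type and 12.78, 12.50 and 12.65 in Norrin. Its difference of 0.08 had a 95% interval of -0.26 to 0.41, which excludes a decrease of the size estimated for Lrp2. Dab2, the clathrin adaptor, stood at 13.50, 13.08 and 13.40 in wild type and at 13.78, 13.18 and 13.61 in Norrin. All 3 pairs were higher in Norrin, but the groups overlapped and the difference of 0.20 had an adjusted p of 0.747 by limma. The other Dab2 probe sets gave 0.23, 0.49 and 0.79. The last, at 10.27, 9.92 and 9.99 against 11.10, 10.42 and 11.03, had groups apart and an adjusted p of 0.0973 by limma over all probe sets.

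Lrpap1, the chaperone, was the member with the largest higher value in Norrin. At E10.5 it stood at 13.00, 13.19 and 12.63 in wild type and at 13.54, 13.26 and 13.38 in Norrin. The groups lay apart by little, since wild type replicate 2 came within 0.06 of its Norrin partner. The difference was 0.45 (SE 0.16, 95% interval 0.10 to 0.80), a 1.37-fold higher level, with an adjusted p of 0.177 by limma and of 0.0669 with the replicate block. The other 3 probe sets gave 0.56, 0.43 and 0.41, and in each of the 4 all 3 pairs were higher in Norrin.

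Folr1, the folate receptor, ranged from 10.84 to 12.12 within wild type at E8.5, the widest range of any member in that group. At E10.5 it stood at 12.15, 11.83 and 11.73 in wild type and at 11.78, 11.43 and 10.97 in Norrin. The groups overlapped, since the highest Norrin pool exceeded the lowest wild type pool, but within each pair Norrin was lower, by -0.37, -0.41 and -0.76. The difference of -0.51 (SE 0.31) had an adjusted p of 0.553 by limma. With the replicate block the SE was 0.13 and the adjusted p 0.0352.

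**Figure D3:**
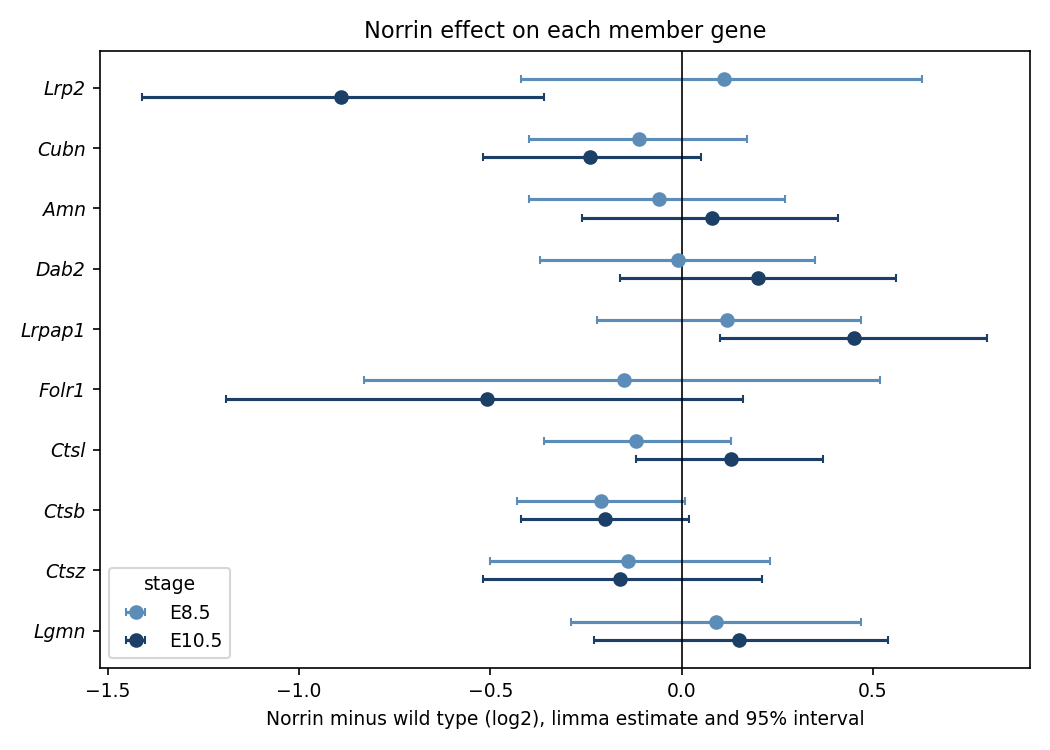
Norrin minus wild type (x axis, log2) for each member (y axis) at E8.5 and E10.5, as limma estimates with 95% intervals. At E10.5 the intervals of Lrp2 (-1.41 to -0.36) and Lrpap1 (0.10 to 0.80) leave out 0, before adjustment over all genes.

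By the probe sets used, the 4 lysosomal proteases differed by 0.20 or less at E10.5, in both directions. Ctsl, a lysosomal endopeptidase, stood at 13.71, 13.78 and 13.68 in wild type and at 13.83, 13.87 and 13.86 in Norrin. The groups were apart by a narrow gap, with a difference of 0.13 (SE 0.11, 95% interval -0.12 to 0.37). The other, dim Ctsl probe set gave 0.21 with overlapping groups. Ctsb stood at 13.45, 13.39 and 13.40 in wild type and at 13.19, 13.30 and 13.14 in Norrin.

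The Ctsb difference of -0.20 (SE 0.10, adjusted p = 0.407 by limma) was close to that at E8.5, and all 3 pairs were lower in Norrin at both stages. Of its other 4 probe sets 3 gave -0.24, -0.37 and -0.50 and the dimmest gave 0.08. Ctsz, a carboxypeptidase, stood at 13.14, 13.16 and 13.07 in wild type and at 12.93, 13.07 and 12.91 in Norrin. The Ctsz groups just failed to overlap, with a difference of -0.16 and an adjusted p of 0.843, and its other probe sets gave -0.21 and -0.17. Lgmn, the asparagine endopeptidase, had overlapping groups at 12.68, 12.36 and 12.61 against 12.74, 12.63 and 12.74, a difference of 0.15.

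Ctsl has close relatives in the placenta, and their mean level marked 1 pool at E10.5. The 8 placental cathepsins were dim, with mean levels below 6.18, under which lay 25% of genes. Their mean log2 level was 6.98 in Norrin replicate 2 at E10.5 and 4.22 to 4.93 in the other 5 arrays of that stage. In that pool Ctsl itself stood at 13.87, beside 13.83 and 13.86 in the other Norrin pools. By limma 0 of the 8 were called at E10.5 (0 at an unadjusted p under 0.05). Single placental cathepsins also varied between pools of other groups, such as Ctsj in wild type at E10.5 (5.75, SD 1.9) and Cts7 in Norrin at E8.5 (5.18, SD 1.85).

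Markers of visceral endoderm and of other cells moved at E10.5 as well. In whole tissue, fewer cells of a type and less RNA per cell cannot be told apart. Of 15 visceral endoderm markers 1 rose (Sox17) and 3 fell (Apoa1, Apoa4 and Hnf4a) by limma, 8 had an unadjusted p under 0.05, and with the replicate block 3 rose and 5 fell. Over all genes at E10.5, 4.07% passed by limma, 13.2% with the block, and 14.0% had an unadjusted p under 0.05. The median difference of these markers was -0.33, with 11 of 15 below 0. The mean level of the list, 12.16 to 12.34 in wild type and 12.11 to 12.25 in Norrin, includes Sox17 at 2.97 and Gata4 at 0.91. Hnf4a, a transcription factor of visceral endoderm and liver, fell from 12.06 ± 0.23 to 11.35 ± 0.13 (SD, n = 3; adjusted p = 0.0149 by limma).

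Of 12 parietal endoderm markers 5 rose and 0 fell (8 rose with the replicate block), with a mean level of 10.07 to 10.12 in wild type and of 10.83 to 10.97 in Norrin. Of 17 macrophage markers 1 fell (Fcgr3, also with the block) and 0 rose, with levels of 7.52 to 7.98 and 7.14 to 7.88, and Aif1, Ptprc and Cd163 had mean levels below 6.18. Of 10 erythroid markers 6 fell (9 with the block), from 10.78 to 12 in wild type to 10.03 to 10.18 in Norrin. Of 10 mesenchyme markers 2 rose (4 with the block), from 11.30 to 11.47 to 11.71 to 11.87. Of 10 endothelial markers limma called 0, with 1 at an unadjusted p under 0.05, while 2 rose with the block. Of 7 embryo neural markers 0 were called (1 at an unadjusted p under 0.05), and 1 rose with the block (Sox2). Sox2 stood at 3.61 in wild type and 4.44 (SD 0.71) in Norrin, with overlapping groups. Mean levels below 6.18 were found for 5 of the neural markers, Sox2 among them, for Tpbpa and Psg17 of trophoblast, and for Pgr and Hoxa10 of decidua. Of 7 trophoblast markers 0 were called by either model (2 at an unadjusted p under 0.05). Of 7 decidua markers 1 rose (Wnt4), and 4 with the block. These counts stand beside 4.07% of all genes by limma, 13.2% with the block and 14.0% at an unadjusted p under 0.05. With the block the endothelial and embryo neural counts are near the share of all genes. The part of these cell types in the differences of the members was not tested.

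Beyond the members, 123 further genes of uptake and lysosomal digestion were measured in 9 lists. At E8.5 limma called 0 of them (7 at an unadjusted p under 0.05), and 2 with the replicate block, both lower (Apob and Fcgrt), where 1.41% of all genes passed. At E10.5 it called 8, of which 4 rose and 4 fell, which is 6.5% of the lists against 4.07% of all genes. The median difference was -0.04, beside 0.0. With the replicate block 20 passed, where 13.2% of all genes did.

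**Figure D4:**
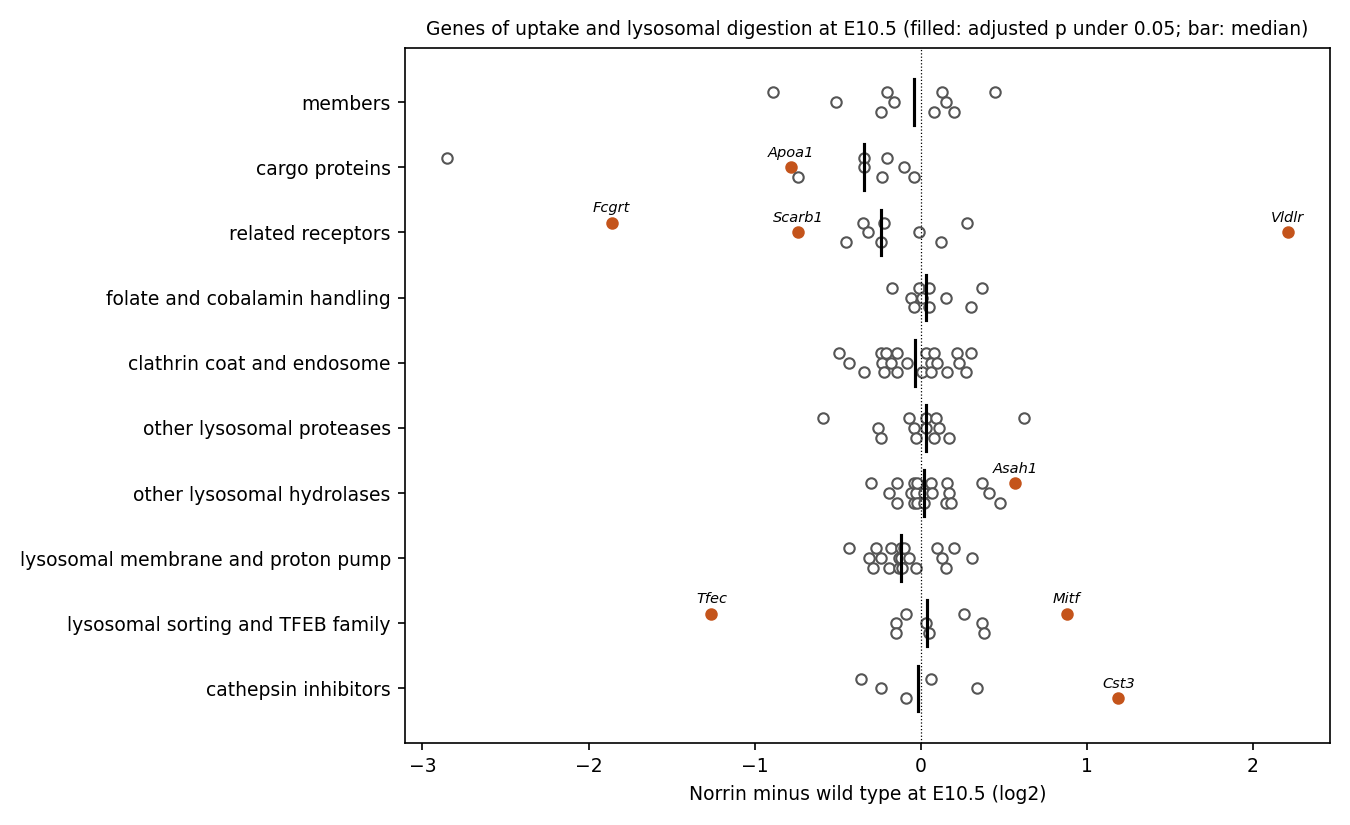
Norrin minus wild type at E10.5 (x axis, log2) for the members and for each list of pathway genes (y axis), 1 point per gene, filled where the adjusted p by limma is under 0.05, with bars at the list medians. The 8 called genes lie in 5 of the 9 lists, and most clathrin and lysosome genes lie near 0.

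Among 11 related receptors 1 rose and 2 fell. Vldlr, the very low density lipoprotein receptor and a relative of megalin that RAP also binds, stood at 7.03, 7.26 and 7.78 in wild type and at 9.10, 9.88 and 9.71 in Norrin at E10.5. Every Norrin pool lay above every wild type pool, a 4.62-fold rise (log2 2.21, SE 0.23, adjusted p = 0.000484 by limma). At E8.5 both groups lay below the level of 6.18, at 4.36 ± 0.18 and 4.42 ± 0.25. The other 5 Vldlr probe sets gave 2.49, 1.15, 0.77, 0.72 and 0.20 at E10.5.

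Fcgrt, the neonatal Fc receptor that carries maternal IgG and spares albumin from lysosomes, stood at 11.49, 12 and 11.31 in wild type and at 9.57, 10.23 and 9.42 in Norrin at E10.5. It fell by 1.86 on the log2 scale (SE 0.39, adjusted p = 0.0195 by limma). Scarb1, the HDL receptor, stood at 11.90, 11.29 and 11.57 in wild type and 11.11, 10.72 and 10.70 in Norrin, and fell by 0.74 (adjusted p = 0.0264). The groups were apart for both. At E8.5 Fcgrt gave -1.05 (adjusted p = 0.612, and 0.00504 with the replicate block). The Fcgrt call was lost without wild type replicate 1 or 2 or Norrin replicate 1 or 3 of E10.5 (-2.11 to -1.66, adjusted p up to 0.0949). The Scarb1 call was lost without wild type replicate 1 or 3 or Norrin replicate 2 or 3 of E10.5 (-0.89 to -0.59, adjusted p up to 0.127). It was also lost with the E10.5 arrays alone and with the mean of its probe sets.

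All 9 measured genes of cargo proteins had values below 0 in the E10.5 comparison, with a median of -0.34 beside 0.0 over all genes. These are RNA levels in the yolk sac, and the protein that reached the receptors was not measured. By limma 1 was called and 4 had an unadjusted p under 0.05, and with the replicate block 4 fell: Apoa1, Apob, Alb and Rbp4. Without the block Apob gave -0.74 (adjusted p = 0.0693, and 0.000898 with it), Alb -2.85 (0.0675, and 0.00605 with it) and Rbp4 -0.34 (0.234, and 0.0445 with it). Apoa1, the main apolipoprotein of HDL and a ligand of cubilin, stood at 14.49, 14.41 and 14.21 in wild type and at 13.70, 13.69 and 13.38 in Norrin. It fell by 0.78 (SE 0.13, adjusted p = 0.00677 by limma), and its other 3 probe sets gave -0.85, -0.85 and -0.95. Apoa1 and the cargo genes Ttr, Rbp4 and Apob are also markers of visceral endoderm. At E8.5 8 of the 9 were also below 0, with a median of -0.2 beside -0.02 over all genes. There 0 were called by limma and 2 had an unadjusted p under 0.05. Apob had the largest cargo value at E8.5, -0.49 (adjusted p = 0.673 by limma, and 0.0305 with the replicate block).

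Among 6 cathepsin inhibitors 1 rose. Cst3, cystatin C, a secreted inhibitor of the cathepsins, stood at 11.49, 11.33 and 11.11 in wild type and at 12.61, 12.28 and 12.59 in Norrin at E10.5. The groups did not overlap, and the rise of 1.19 (SE 0.17) had an adjusted p of 0.00253 by limma. The E8.5 value of 0.35 was not called.

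Of 10 genes for lysosomal sorting and the TFEB family 1 rose and 1 fell (3 and 1 with the replicate block, which added Igf2r and Sort1). Mitf, a member of that family, rose by 0.88 (SE 0.20, adjusted p = 0.0306 by limma), from 6.39, 6.67 and 6.39 to 7.04, 7.57 and 7.48. Its second probe set, at a lower level, gave 0.15. Tfec, its relative, fell by 1.26 (SE 0.29, adjusted p = 0.0289 by limma), from 9.40, 9.36 and 8.89 to 7.69, 7.83 and 8.35. The call of Mitf was lost without Norrin replicate 2 or 3 or any wild type array of E10.5, with an adjusted p of up to 0.133. That of Tfec was lost without replicate 1 or 2 of either E10.5 group, with an adjusted p of up to 0.111. Leaving out the Norrin pools numbered 2 also ended the calls of Mitf, Tfec, Scarb1 and Asah1, while 5 pathway genes were called in that fit.

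The machinery of coats and lysosomes showed few calls at E10.5. Of 22 other lysosomal hydrolases 1 rose, Asah1, the acid ceramidase, by 0.57 (SE 0.13, adjusted p = 0.03 by limma), from 10.97, 10.94 and 10.80 to 11.57, 11.45 and 11.41. Its call was lost when any 1 of the 6 E10.5 arrays was left out, with an effect between 0.52 and 0.61 and an adjusted p of up to 0.12. With the replicate block 2 hydrolases rose, Asah1 and Ids. By limma 0 of 22 clathrin and endosome genes were called (2 at an unadjusted p under 0.05, 3 with the replicate block), the largest value being -0.49 for Hip1r (adjusted p = 0.138, and 0.0121 with the block). For 13 other lysosomal proteases 0 were called (1 at an unadjusted p under 0.05), the largest value being 0.62 for Prcp, a carboxypeptidase (adjusted p = 0.408). With the block 1 protease rose, Prcp (adjusted p = 0.00669), and 1 fell, Dpp7 (-0.59, adjusted p = 0.176 without the block and 0.0184 with it).

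For 20 genes of the lysosomal membrane and proton pump 0 were called by limma and 0 had an unadjusted p under 0.05, the largest value being -0.43 for Atp6v1g1. Of 10 genes for folate and cobalamin handling 0 were called (1 at an unadjusted p under 0.05), the largest value being 0.37 for Lmbrd1, which exports cobalamin from lysosomes (adjusted p = 0.201, and 0.046 with the block). At E8.5, where 0 genes of the 9 lists were called, the largest values were 0.43 for Slc46a1 (folate and cobalamin), -0.36 for Hip1r (clathrin) and -0.46 for Ctsc (proteases). They were 0.32 for Gusb (hydrolases), 0.27 for Atp6v1f (membrane and pump) and 0.39 for Gnptg (sorting).

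Between E8.5 and E10.5 in wild type, limma called Lrp2 and Lrpap1 higher and Dab2 and Lgmn lower. Of these calls only that of Lgmn held under each scaling. The values have the form of 2 separate normalization runs, 1 per stage, so stage and run cannot be told apart: 2 arrays of 1 stage had between 26 and 93 values that were identical, and none of the 36 pairs of arrays from both stages had 1. By limma 4 of 10 members were called in wild type, 2 higher and 2 lower, where 32.5% of all genes were called (25.4% higher and 7.12% lower). The median member difference was -0.05 beside 0.14 over all genes. That median was -0.14 after centring each array on its own median and -0.05 after quantile normalization of all arrays. Over all genes 4619 were higher and 1296 lower in wild type as deposited, 2450 and 4615 after centring, and 2909 and 3374 after quantile normalization. In Norrin the counts were 5133 and 1762, 2688 and 5002, and 3060 and 3587. The groups did not overlap for 7 of 10 members in wild type, against 43.9% of all genes.

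Lgmn was 0.99 lower at E10.5 than at E8.5 in wild type (SE 0.18, adjusted p = 0.00118 by limma) and 0.92 lower in Norrin (adjusted p = 0.00157). Its wild type pools went from 13.72, 13.74 and 13.17 to 12.68, 12.36 and 12.61, and its Norrin pools from 13.91, 13.57 and 13.40 to 12.74, 12.63 and 12.74. Both differences were called under each scaling, at -1.27 and -0.97 in wild type. They were also called with each array left out. Lgmn had 1 probe set, so no other could be set beside it.

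Lrp2 rose by 0.86 with stage in wild type (adjusted p = 0.0168 by limma), with groups apart, while in Norrin its stage difference was -0.13 (adjusted p = 0.698). After centring the wild type value was 0.58 (adjusted p = 0.0945). The call was also lost without wild type replicate 2 of E8.5 or of E10.5, at 0.70 and 0.69. The other Lrp2 probe sets gave 0.77 and 0.18 in wild type and -0.37 and -0.14 in Norrin. Lrpap1 was higher at E10.5 in both genotypes, by 0.50 in wild type (adjusted p = 0.0299) and by 0.83 in Norrin (adjusted p = 0.0017). Its probe sets disagreed: the others gave 0.49, -0.21 and 0.06 in wild type and 0.78, 0.06 and 0.22 in Norrin. After centring the wild type value was 0.22 (adjusted p = 0.272), and the wild type call was also lost without replicate 1 or 2 of either wild type group (0.38 to 0.51).

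The other Dab2 probe sets gave -0.18, -0.27 and -0.47 with stage in wild type. None was called (adjusted p = 0.269 to 0.635 by limma over all probe sets). By the probe set used, Dab2 was 0.47 lower at E10.5 in wild type (adjusted p = 0.0452 by limma), with groups apart, and 0.39 lower after quantile normalization (adjusted p = 0.0888). Its call was lost in 8 of the 12 fits with 1 array left out, namely those without wild type replicate 1 or 2 of E8.5 or 2 or 3 of E10.5, any Norrin pool of E8.5, or Norrin replicate 3 of E10.5, with values of -0.51 to -0.35. In Norrin 3 of 10 members were called, where 37.9% of all genes were (28.2% higher and 9.69% lower), and 4 had groups apart, against 51.7%. These were Lrpap1, Lgmn and Cubn, which was 0.41 lower (adjusted p = 0.0279) and 0.35 lower after quantile normalization (adjusted p = 0.0622). The Cubn call was lost without Norrin replicate 1 of E8.5 (-0.31) or replicate 1 or 2 of E10.5 (-0.42 and -0.32). The other Cubn probe set gave -0.39 in Norrin (adjusted p = 0.0825 by limma over all probe sets) and -0.14 in wild type. After centring, the Cubn difference in wild type (-0.57, adjusted p = 0.00786) and the Dab2 difference in Norrin (-0.56, adjusted p = 0.0182) were called too. By the probe sets used, Ctsb and Ctsz changed sign with the scaling in wild type. They stood at 0.16 and 0.22 as deposited and at -0.12 and -0.06 after centring, and were not called under these scalings. The other Ctsz probe sets were higher as deposited, by 0.52 and 0.78 in wild type (adjusted p = 0.0182 and 0.00762 by limma over all probe sets). In Norrin these gave 0.44 and 0.79 (adjusted p = 0.0349 and 0.00622). The dimmest Ctsb probe set gave 0.50 in Norrin (adjusted p = 0.0179), and the other Ctsb probe sets not used gave -0.15, -0.05 and 0.15.

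**Figure D5:**
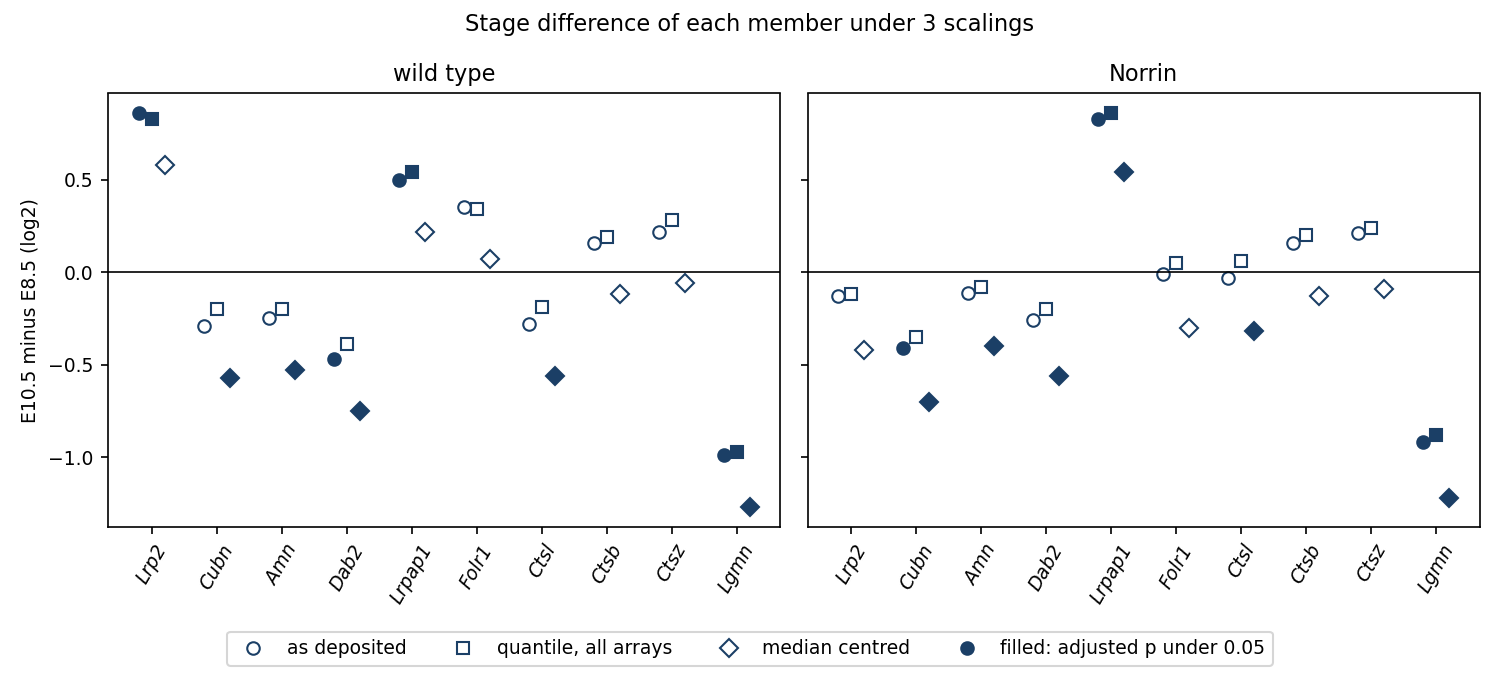
E10.5 minus E8.5 (y axis, log2) for each member (x axis) in wild type and in Norrin, as deposited, after quantile normalization of all arrays and after median centring; filled points have an adjusted p under 0.05 by limma. Lgmn is filled at -1.27 to -0.88 under all 3 scalings in both genotypes, while the calls of Lrp2, Dab2, Lrpap1 and Cubn change with the scaling.

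The genes whose pattern was most like that of a member were found over the 12 arrays after each stage's mean was subtracted, among genes at or above the median level. For Lrp2 these were Hipk1 (Pearson's r = 0.929), Lclat1 (0.918), Entpd5 (0.876), Gstt3 (0.871) and Napg (0.864). For Cubn they were Slc25a15 (0.916), Ces2b (0.904), Gcsh (0.902), Slc25a20 (0.893) and Hmmr (0.887). These are the highest of many correlations, the points share pools and genotype groups, and they are given as a description.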

How the data were processed

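RNA of 12 pools of whole yolk sac was measured on 12 arrays. The authors deposited log2 expression values made by RMA, per the submitters' processing notes, which give no version. Identical values were shared by arrays within but not across stages, the pattern left by a separate run for each stage; no label states this. Of 45101 probe sets, 34945 had 1 gene in the platform annotation, 932 several and 9160 none, and 64 were controls. Unnamed and multi-gene probe sets were not analysed here, and 0 columns of other samples were present.

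A model with 1 mean per group (residual df 8) was fitted to 18193 genes with limma 3.58.1 in R 4.3.3 (lmFit, eBayes), with Benjamini-Hochberg adjustment over all genes and a threshold of 0.05. The files were summarised with Python 3.11.15. The script was tested on simulated data. Groups are called apart where every array of one lies above every array of the other. A pair difference is Norrin minus wild type of the same replicate number, a number from the labels. No label states a pairing, and the numbers were taken to pair the pools from these same data. Deviations of same-numbered pools from their group means correlated at r = 0.73, 0.32 and 0.73 at E8.5 and 0.51, 0.21 and 0.22 at E10.5. Pools of unlike number gave r = -0.72 to 0.30 at E8.5 and -0.35 to 0.16 at E10.5, so the highest of these came close to the lowest same-number values. The blocked fit has this number as a block within each stage, which leaves fewer residual df than the 8 above.

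The members and lists were chosen with earlier results of these data known. Named were all members, of each pathway list up to 4 genes with the largest change past the threshold per Norrin comparison (with none, the 1 largest value), summed levels of marker lists, and the 5 genes most correlated with Lrp2 and Cubn. Marker genes and genes called with the block that the text adds were named after their values were seen. Alternatives were the blocks, each stage's arrays alone, median centring, quantile normalization, array weights, a robust trend, other probe set rules, a level filter, each array left out and, added after seeing the data, both Norrin pools numbered 2 left out. Array number limits the precision: the median SE of a Norrin effect was 0.16.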

Additional observations from a re-analysis of the deposited data

Results flagged for a closer look

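The Norrin effect on Vldlr, the lipoprotein receptor related to megalin, differed between the stages by the test of the difference itself. It was 0.06 at E8.5 and 2.21 at E10.5 on the log2 scale, a difference of 2.15 (SE 0.33, 95% interval 1.44 to 2.86, adjusted p = 0.0372 by limma, and 0.00377 with the replicate block). It was the 1 gene called among the 123 pathway genes (0.813%), where 0.0934% of all genes were called. At E8.5 the wild type pools stood at 4.31, 4.56 and 4.22 and the Norrin pools at 4.15, 4.47 and 4.64, levels near the floor of the arrays, where a ratio can be compressed. The call was lost in 7 of 12 fits with 1 array left out (effects of 1.98 to 2.38, adjusted p up to 0.134): without replicate 1 or 2 of wild type or Norrin at E8.5, replicate 1 or 2 of wild type at E10.5, or Norrin replicate 3 at E10.5. Without both Norrin pools numbered 2 the adjusted p was 0.125. The higher level at E10.5 was called in all 12 such fits, at 2.04 to 2.44.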

How the results depend on the processing

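The precision is that of 3 pools a group, and every stage difference is tied to a normalization run. Of the 10 members, the count called at E10.5 was 2 with the replicate block within the stage (Lrp2, Folr1), 1 with the stage's arrays alone, with quantile normalization and with the mean of probe sets (Lrp2), and 2 with array weights (Lrp2, Lrpap1); with 1 array left out it was 0 to 1. The block changed no other call of a member. Array weights called many genes: 4 members at E8.5 (Cubn, Ctsl, Ctsb, Ctsz; 28.3% of all genes), 2 in the difference between stages (Lrpap1, Ctsl; 15%) and all 10 with stage in wild type (59.3%). The wild type stage count was 2 among genes at or above the median level and 1 to 5 with 1 array left out, and the Norrin stage count was 6 after centring and 2 to 3. Of the 123 pathway genes, 2 were called with the block and 32 with array weights at E8.5. At E10.5 the block called 20 and array weights 17 (12.7% of all genes), 5 were called without both Norrin pools numbered 2, and 4 to 9 with 1 array left out. The cause of these changes was not tested.

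Some uncalled member differences changed sign. After centring these were Dab2 at E8.5 (0.01), Ctsb between stages of the Norrin effect (-0.01), Ctsb and Ctsz with stage in wild type (-0.12, -0.06) and in Norrin (-0.13, -0.09). Quantile normalization turned Folr1 (0.05) and Ctsl (0.06) with stage in Norrin. Array weights turned Lrp2 (-0.03), Lrpap1 (-0.05), Folr1 (0.14) and Lgmn (-0.13) at E8.5, Cubn (0.07), Ctsb (-0.04) and Ctsz (0.16) between stages of the Norrin effect, and Lrp2 (0.31) and Folr1 (0.13) with stage in Norrin. The mean of probe sets turned Dab2 (0.22) and Ctsl (0.13) at E8.5, Ctsb (-0.13) between stages, and Ctsl with stage (0.07 in wild type, 0.10 in Norrin). The probe set of largest variance gave Dab2 0.34 and Ctsl 0.38 at E8.5, Ctsl -0.17, Ctsb -0.20 and Ctsz 0.01 between stages, and Ctsl 0.41 and 0.24 with stage. Without both Norrin pools numbered 2, Dab2 (0.03), Folr1 (0.02) and Ctsz (0.05) turned at E8.5, Ctsb (-0.02) between stages and Ctsz (-0.04) with stage in Norrin.

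With 1 array left out, the E8.5 differences ran from -0.11 to 0.34 (Lrp2), -0.18 to 0.05 (Amn), -0.09 to 0.06 (Dab2), -0.01 to 0.22 (Lrpap1), -0.51 to 0.13 (Folr1), -0.27 to 0.05 (Ctsz) and -0.10 to 0.20 (Lgmn). At E10.5 Amn ran from -0.01 to 0.23. Between stages of the Norrin effect Ctsb ran from -0.04 to 0.04, Ctsz from -0.21 to 0.11 and Lgmn from -0.05 to 0.25. With stage, Folr1 ran from 0.00 to 0.63 in wild type, and Lrp2 from -0.36 to 0.09, Folr1 from -0.20 to 0.21 and Ctsl from -0.09 to 0.01 in Norrin. Of member differences under the other alternatives, 423 kept direction and call, 13 lost and 30 gained the call, and 34 turned; with 1 array left out these were 549, 17, 3 and 31.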
